A study of Mus musculus with 26 samples.

Results

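DN1eP-NKT cells, natural killer T cells grown in culture from sorted thymocytes, were compared with stage 2 NKT cells (NKT-2) sorted from the thymus. The comparison used 8 of the 26 RNA-seq libraries of the series: DN1eP-NKT libraries 1 to 4 and NKT-2 libraries 1 to 4. The libraries were chosen by their titles and, for NKT-2, as the 4 of 7 libraries whose median level of expressed genes matched that of the cultured cells. DN1eP-NKT came from thymocytes named DN1eP, which lacked lineage markers and were CD44+, CD25-, CD24low, CD5+, CD27+, Ly108- and CXCR3+. DN1eP cells were negative for the surface Valpha14Jalpha18 T cell receptor (TCR) and were kept for 10 days with mouse IL-2 and mouse IL-7, each at 5 ng/ml, on a monolayer of OP9/Dll-1 cells. The DN1eP-NKT libraries are labelled as derived from them and positive for that receptor, and the labels do not say how they were separated from the stroma. NKT-2 cells bound CD1d dimer loaded with alphaGalCer, carried TCRbeta and were CD44+ and NK1.1-. Both groups came from wild-type C57BL/6 mice 6 to 8 weeks old, and the labels do not say whether libraries of a group came from different mice or cultures, so p-values measure only the spread between these samples. The groups differ at once in cell of origin, culture, cytokines and stroma, and these cannot be told apart.

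NKT cells carry a nearly invariant TCR that recognises lipids presented by CD1d, and they release cytokines within hours of stimulation. In the mouse thymus they pass from CD44- NK1.1- (stage 1) through CD44+ NK1.1- (stage 2) to CD44+ NK1.1+ cells (stage 3), under the zinc finger factor PLZF, the product of Zbtb16. Stage 2 holds many IL-4-producing cells, while stage 3 is dominated by interferon-gamma-producing, cytotoxic NKT1 cells. OP9 is a mouse bone marrow stromal line, and OP9/Dll-1 also carries the Notch ligand Delta-like 1. IL-2 and IL-7 signal through STAT5, which switches on survival genes, Il2ra and feedback inhibitors such as Cish.

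Levels are FPKM, fragment counts scaled to transcript length and library size, as the authors deposited them. A gene was called where the limma test on log2(FPKM + 1) gave a Benjamini-Hochberg adjusted p under 0.05, and every fold change is DN1eP-NKT minus NKT-2 on that scale, which understates changes of low genes. Testing was limited to the 10607 genes that reached 1 FPKM in 4 or more of the 8 libraries, and of these 2387 were called (22.5%): 1391 were higher (13.1%) and 996 lower (9.39%) in DN1eP-NKT. With quantile normalization 1234 genes were higher and 1338 lower. The median log2 fold change over all tested genes was 0.015. The 4 DN1eP-NKT libraries did not overlap the 4 NKT-2 libraries for 2722 genes (25.7%), 1520 of them higher and 1202 lower.

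Library 1 of each group stood apart. Its deposited intervals were narrower, with a half-width of 7.01% of the level in DN1eP-NKT library 1 and 7.6% in NKT-2 library 1 for genes at 20 to 100 FPKM, against 15.8% to 21.9% in the other 6 libraries. Read depth itself is unknown. In both library 1 samples 22 tested genes were listed at 0. Median levels of expressed genes were alike, from 12.97 to 13.74 FPKM. Without DN1eP-NKT library 1, 2559 genes were called, and without library 1 of both groups 2613.

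The promoters of 4 genes are shown because their genes belong to 3 of the gene groups described later: the IL-2 response (Cish), cholesterol synthesis (Idi1 and Hmgcs1) and cell division (Racgap1). Each runs 5′ to 3′ on the gene's strand, from 250 bases before the annotated start to 50 after it, in RefSeq's GRCm38.p6 build. Capitals mark, in Cish, the STAT motif GAS (TTCNNNGAA). In Idi1 and Hmgcs1 they mark CCAAT, bound by NF-Y, in either orientation, and the sterol element SRE (TCACNCCAC), bound by SREBP factors. In Racgap1 they mark CCAAT and the cell cycle element CHR (TTTGAA).
Cish, chr9:107296409-107296708, plus strand: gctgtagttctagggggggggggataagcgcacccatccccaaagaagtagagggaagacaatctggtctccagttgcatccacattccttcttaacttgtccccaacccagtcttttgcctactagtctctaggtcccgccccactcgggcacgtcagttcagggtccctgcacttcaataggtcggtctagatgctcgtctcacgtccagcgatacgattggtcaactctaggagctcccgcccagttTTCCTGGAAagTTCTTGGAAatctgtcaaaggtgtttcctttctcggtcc
Idi1, chr13:8885356-8885655, plus strand: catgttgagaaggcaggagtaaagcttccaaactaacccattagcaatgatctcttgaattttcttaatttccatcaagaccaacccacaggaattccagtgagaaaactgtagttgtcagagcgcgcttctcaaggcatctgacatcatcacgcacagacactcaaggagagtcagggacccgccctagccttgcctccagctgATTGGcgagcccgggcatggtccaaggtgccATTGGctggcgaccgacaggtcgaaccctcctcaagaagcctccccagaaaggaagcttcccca
Hmgcs1, chr13:119690101-119690400, plus strand: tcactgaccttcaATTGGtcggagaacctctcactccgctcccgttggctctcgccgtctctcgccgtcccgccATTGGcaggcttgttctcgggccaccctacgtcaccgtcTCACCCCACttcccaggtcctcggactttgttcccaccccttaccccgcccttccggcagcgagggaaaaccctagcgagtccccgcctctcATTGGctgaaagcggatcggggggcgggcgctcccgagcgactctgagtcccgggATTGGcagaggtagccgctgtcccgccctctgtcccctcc
Racgap1, chr15:99651607-99651906, minus strand: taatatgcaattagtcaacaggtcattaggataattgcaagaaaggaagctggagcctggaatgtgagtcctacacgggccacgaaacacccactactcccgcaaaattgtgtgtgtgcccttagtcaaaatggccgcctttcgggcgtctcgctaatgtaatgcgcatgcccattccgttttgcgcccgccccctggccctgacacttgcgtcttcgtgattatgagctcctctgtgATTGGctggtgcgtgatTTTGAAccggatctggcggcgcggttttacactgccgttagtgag
Counting from 0 at the annotated start, the GAS motifs of Cish begin at positions 0 and 11, and the CCAAT motifs of Idi1 at -45 and -14. Hmgcs1 holds 4 CCAAT motifs and 1 SRE, at -137. Racgap1 holds CCAAT at -12 and CHR at 5. Matches were searched on both strands, and a match is a match of letters only.

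The cultured cells expressed the T cell receptor machinery. Cd3e, a chain of the CD3 complex, had 255, 265, 307 and 314 FPKM in DN1eP-NKT libraries 1 to 4, against 263, 411, 276 and 344 FPKM in NKT-2 libraries 1 to 4 (log2 fold change -0.16 ± 0.18 (SE), adjusted p = 0.58). The groups overlapped. Among the 32 TCR complex and signalling genes, all of them tested, 3 were higher (9.38%), 14 lower (43.8%) and the list's median log2 fold change was -0.35; without DN1eP-NKT library 1, 5 were higher. Cd247, the CD3 zeta chain, had 87.6, 111, 117 and 128 FPKM in DN1eP-NKT and 157, 271, 195 and 253 FPKM in NKT-2 (log2 fold change -0.96 ± 0.20 (SE), adjusted p = 0.00384), with no overlap. Cd3d, another CD3 chain, was called lower (log2 fold change -0.74 ± 0.21 (SE), adjusted p = 0.0208), but its adjusted p was 0.0654 without DN1eP-NKT library 2 and 0.056 to 0.071 without NKT-2 library 2, 3 or 4.

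Surface regulators and adaptors of TCR signalling were among the members that fell. Cd5, a surface receptor that dampens TCR signals, had 9.26, 19.1, 14.7 and 19.2 FPKM in DN1eP-NKT, against 97.2, 103, 109 and 127 FPKM in NKT-2 (log2 fold change -2.78 ± 0.21 (SE), adjusted p = 1.28e-06). Its relative Cd6 had 9.59, 27.7, 19.7 and 26.9 FPKM in DN1eP-NKT and 101, 91.6, 78.1 and 106 FPKM in NKT-2 (log2 fold change -2.21 ± 0.28 (SE), adjusted p = 8.95e-05). Neither gene's groups overlapped. Themis, needed for thymocyte selection, ranged from 1.64 to 3.42 FPKM in DN1eP-NKT and from 11.5 to 18.6 FPKM in NKT-2 (log2 fold change -2.26 ± 0.22 (SE), adjusted p = 8.09e-06). Sh2d1a, which encodes the SLAM adaptor SAP that NKT cells need to develop, ranged from 26.2 to 34.9 FPKM in DN1eP-NKT and from 101 to 185 FPKM in NKT-2 (log2 fold change -2.09 ± 0.19 (SE), adjusted p = 5.71e-06). On the higher side, Ubash3a, a phosphatase-family inhibitor of TCR signalling, had 10.8, 20.7, 25 and 20.7 FPKM in DN1eP-NKT and 3.02, 2.46, 3.95 and 3.51 FPKM in NKT-2 (log2 fold change 2.22 ± 0.24 (SE), adjusted p = 2.75e-05). Rasgrp1, the activator of Ras below the TCR, ranged from 94.5 to 124 FPKM in DN1eP-NKT and from 26.2 to 43.4 FPKM in NKT-2 (log2 fold change 1.71 ± 0.18 (SE), adjusted p = 2.19e-05), and Cd2, an adhesion receptor, was higher too (log2 fold change 0.85 ± 0.20 (SE), adjusted p = 0.00697).

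Of the 8 genes behind the sort gates, 7 were tested: 1 was higher and 3 were lower, while Cd44, Cxcr3 and Klrb1c, which encodes NK1.1, were not called. Klrb1c had 56.8, 11.3, 13.1 and 14 FPKM in DN1eP-NKT, against 19, 48.6, 15.8 and 19 FPKM in NKT-2 cells gated as NK1.1- (log2 fold change -0.29 ± 0.56 (SE), adjusted p = 0.777). A single library of each group was high: DN1eP-NKT library 1 and NKT-2 library 2. Cd44 had 34.6, 52.1, 60.6 and 58.8 FPKM in DN1eP-NKT and 48.4, 75.9, 57.7 and 55.8 FPKM in NKT-2 (log2 fold change -0.22 ± 0.20 (SE), adjusted p = 0.505), and Cxcr3 also overlapped between the groups (log2 fold change -0.08 ± 0.16 (SE), adjusted p = 0.78). Cd27, a costimulatory receptor, was lower in the cultured cells, at 58.1, 43.4, 40.4 and 42.5 FPKM, against 87.3, 118, 96.9 and 120.5 FPKM in NKT-2 (log2 fold change -1.18 ± 0.17 (SE), adjusted p = 0.00028). Slamf6, which encodes Ly108, the SLAM receptor through which thymocytes support NKT development, was all but missing: 0.329, 0, 0 and 0 FPKM in DN1eP-NKT, against 44.7, 89.3, 72.9 and 87.2 FPKM in NKT-2 (log2 fold change -6.07 ± 0.23 (SE), adjusted p = 5.57e-09). DN1eP cells were themselves gated as Ly108-, and their median was 9.89 FPKM in libraries of lower median level. Cd24a stayed under the expression filter, at 0.191 to 0.91 FPKM in DN1eP-NKT and 0 to 1.05 FPKM in NKT-2.

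The cultured cells carried little of either coreceptor. Cd4 had 2.29, 5.71, 6.16 and 4.73 FPKM in DN1eP-NKT, against 73.4, 75.6, 87.3 and 87.2 FPKM in NKT-2 (log2 fold change -3.90 ± 0.23 (SE), adjusted p = 1.14e-07). All 4 cultured libraries lay far below all 4 NKT-2 libraries. Cd8a ranged from 0.38 to 2.14 FPKM in DN1eP-NKT and from 0.277 to 0.863 FPKM in NKT-2 and was not tested. Cd8b1 overlapped (log2 fold change -0.21 ± 0.43 (SE), adjusted p = 0.782), with DN1eP-NKT library 1 at 0.0676 FPKM and its other 3 libraries at 3.19 to 3.92 FPKM.

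Zbtb16 was lower in the cultured cells, while Tbx21 and Gata3, factors of the effector lineages, were not called. Of 25 regulators, all tested, 12 were lower (48%), 2 higher (8%) and 11 not called, with a median log2 fold change of -0.88. Zbtb16 (mm9 chromosome 9, 48462402 to 48644050) had 6.9, 4.51, 5.07 and 5.42 FPKM in DN1eP-NKT, against 47.1, 64.1, 54.7 and 76 FPKM in NKT-2 (log2 fold change -3.24 ± 0.18 (SE), adjusted p = 1.06e-07). The highest DN1eP-NKT library was far below the lowest NKT-2 library. In stage 3 libraries of matching median level the Zbtb16 median was 17.1 FPKM, and in such stage 1 libraries 96.9 FPKM.

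Of the other T lineage factors some were lower and some were not called. Lef1 had 6.81, 9.28, 6.46 and 11.8 FPKM in DN1eP-NKT, against 46.9, 49.8, 50.9 and 57.4 FPKM in NKT-2 (log2 fold change -2.48 ± 0.19 (SE), adjusted p = 1.19e-06). Its partner Tcf7, which encodes TCF-1, had 127, 114, 159 and 156 FPKM in DN1eP-NKT and 356, 511, 368 and 589 FPKM in NKT-2 (log2 fold change -1.69 ± 0.20 (SE), adjusted p = 5.73e-05). Tcf7 was still above 100 FPKM in every cultured library, with no overlap between the groups. Tox, needed for CD4-lineage and NKT development, had 16.1, 10.7, 11.9 and 10.0 FPKM in DN1eP-NKT and 54, 74.9, 60.9 and 68.2 FPKM in NKT-2 (log2 fold change -2.32 ± 0.18 (SE), adjusted p = 1.19e-06). Myb, a progenitor factor that NKT precursors require, had 8.07, 2.28, 2.01 and 1.65 FPKM in DN1eP-NKT and 21.9, 21.8, 23.9 and 29.1 FPKM in NKT-2 (log2 fold change -2.67 ± 0.33 (SE), adjusted p = 9.12e-05). Sox4, Hivep3, Runx1 and Ikzf2, the last encoding Helios, were also called lower, with log2 fold changes of -0.88, -1.01, -1.21 and -1.84. Bcl11b, Satb1 and Bach2 overlapped between the groups and were not called, with log2 fold changes of -0.29 ± 0.17, -0.08 ± 0.14 and 0.11 ± 0.22 (SE; adjusted p = 0.269, 0.75 and 0.771).

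Among factors induced by TCR signals, Egr2, Egr3 and Id3 were lower and Egr1 and Nr4a1 were not called. Egr2, which binds the Zbtb16 locus in NKT precursors, had 4.18, 3.72, 4.1 and 0.826 FPKM in DN1eP-NKT, against 11.7, 13.8, 17 and 11.1 FPKM in NKT-2 (log2 fold change -1.87 ± 0.31 (SE), adjusted p = 0.000778). Egr3, its close relative, ranged from 3.14 to 7.26 FPKM in DN1eP-NKT and from 18.7 to 20.5 FPKM in NKT-2 (log2 fold change -1.81 ± 0.24 (SE), adjusted p = 0.000128). Id3, an E-protein inhibitor induced below the Egr factors, had 39.9, 46, 54 and 59.9 FPKM in DN1eP-NKT and 99.5, 113, 121 and 172 FPKM in NKT-2 (log2 fold change -1.31 ± 0.20 (SE), adjusted p = 0.000351). None of these 3 genes' groups overlapped. The groups did overlap for Egr1 (log2 fold change 0.33 ± 0.44 (SE), adjusted p = 0.655) and for Nr4a1 (log2 fold change -1.63 ± 0.86 (SE), adjusted p = 0.247). Id2, the counterpart of Id3 and typical of effector and innate lymphocytes, was not called, although its groups did not overlap: 622, 517, 461 and 480.5 FPKM in DN1eP-NKT, against 360.2, 424, 400.4 and 333 FPKM in NKT-2 (log2 fold change 0.45 ± 0.17 (SE), adjusted p = 0.072).

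The lineage factors of NKT1 and NKT2 cells overlapped between the groups. Tbx21, which encodes T-bet, had 19.9, 39.8, 49.6 and 57.6 FPKM in DN1eP-NKT and 26.8, 42.4, 38.7 and 56.1 FPKM in NKT-2 (log2 fold change -0.03 ± 0.31 (SE), adjusted p = 0.965), and Gata3 had 43.3, 43.1, 50.5 and 54 FPKM in DN1eP-NKT and 57.7, 51.6, 42.8 and 68.8 FPKM in NKT-2 (log2 fold change -0.19 ± 0.17 (SE), adjusted p = 0.478). Runx3, a partner of T-bet, was not called either (log2 fold change 0.37 ± 0.16 (SE), adjusted p = 0.123). The 2 regulators called higher were Eomes and Nfil3, both factors of NK cell development. Eomes had 54.9, 4.65, 6.27 and 6.16 FPKM in DN1eP-NKT, against 0, 0.488, 0.0156 and 0.0773 FPKM in NKT-2 (log2 fold change 3.33 ± 0.66 (SE), adjusted p = 0.00616), and DN1eP-NKT library 1 alone reached 54.9 FPKM; without it the log2 fold change was 2.56 (adjusted p = 1.19e-05). Nfil3 had 36.2, 18.7, 11.3 and 16.6 FPKM in DN1eP-NKT and 12.6, 0.944, 0.809 and 0.449 FPKM in NKT-2, with NKT-2 library 1 inside the range of the cultured cells (log2 fold change 2.79 ± 0.75 (SE), adjusted p = 0.0343). Its log2 fold change was 3.54 without NKT-2 library 1 (adjusted p = 1.11e-05), and leaving out any other library gave adjusted p of 0.0609 to 0.0977.

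**Figure D1:**
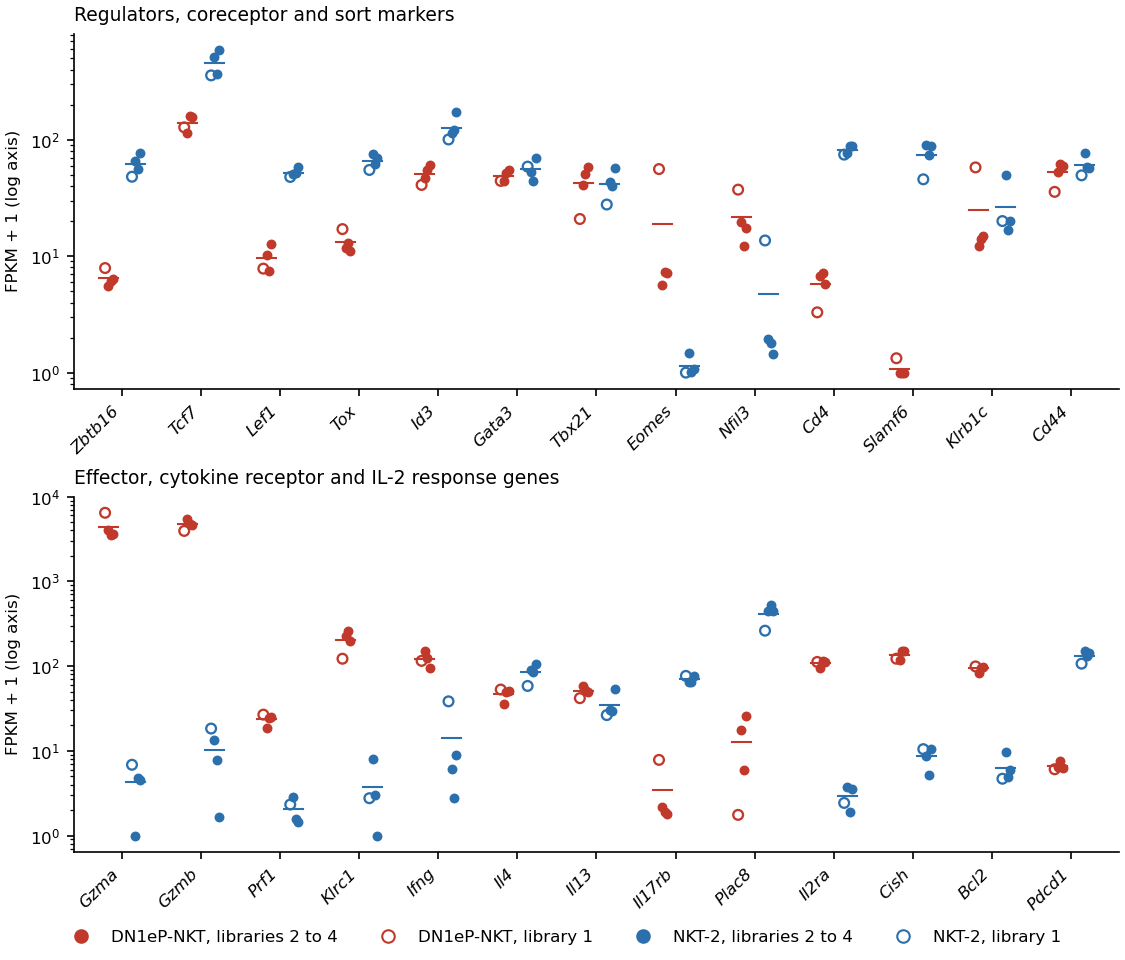
Levels of 26 genes in each library as FPKM + 1 on a log axis; DN1eP-NKT is in red on the left of each gene and NKT-2 in blue on the right, open circles are library 1, filled circles libraries 2 to 4, and bars the mean of the 4 libraries. Zbtb16, Tcf7, Lef1, Tox, Cd4, Slamf6, Il17rb and Pdcd1 lie lower in all 4 DN1eP-NKT libraries, Gzma, Gzmb, Klrc1, Il2ra, Cish and Bcl2 higher, and Tbx21, Gata3, Klrb1c and Cd44 overlap.

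Most cytotoxic genes were higher. Of 38 NKT1 and cytotoxic genes, 34 were tested: 27 were higher (79.4%), 1 lower and 6 not called, with a median log2 fold change of 3.06. In all 4 NKT-2 libraries 9 of the 38 were under 1 FPKM, and any of these that passed the expression filter could not come out lower. Without DN1eP-NKT library 1, 27 were higher and 2 lower. Gzma (mm9 chromosome 13, 113884035 to 113891189), a granzyme of cytotoxic granules, had 6449.7, 3986, 3564 and 3645 FPKM in DN1eP-NKT, against 5.84, 0, 3.76 and 3.57 FPKM in NKT-2 (log2 fold change 10.26 ± 0.58 (SE), adjusted p = 7.56e-06). Gzmb (mm9 chromosome 14, 56877695 to 56881097), the granzyme that cleaves caspases in target cells, had 3939.9, 5388, 4818 and 4632 FPKM in DN1eP-NKT and 17.3, 12.5, 6.87 and 0.663 FPKM in NKT-2 (log2 fold change 9.27 ± 0.72 (SE), adjusted p = 9.49e-05). The groups lay far apart for both; the log2 fold change of Gzma was 9.66 without NKT-2 library 2, where it is listed at 0, and that of Gzmb 8.55 without NKT-2 library 4.

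Prf1, perforin, had 25.7, 17.4, 23.2 and 23.8 FPKM in DN1eP-NKT, against 1.32, 1.82, 0.587 and 0.434 FPKM in NKT-2 (log2 fold change 3.57 ± 0.24 (SE), adjusted p = 4.81e-07). Fasl, the Fas death ligand, had 50.1, 63.4, 79 and 73.3 FPKM in DN1eP-NKT and 3.9, 13.5, 2.58 and 4.29 FPKM in NKT-2 (log2 fold change 3.46 ± 0.37 (SE), adjusted p = 7.95e-05). Nkg7, a granule protein, ranged from 556 to 803 FPKM in DN1eP-NKT and from 94.4 to 155 FPKM in NKT-2 (log2 fold change 2.63 ± 0.20 (SE), adjusted p = 1.3e-06). None of these genes overlapped between groups. Ccl5, a chemokine of memory and NK cells, ranged from 123 to 209 FPKM in DN1eP-NKT and from 9.83 to 12.2 FPKM in NKT-2 (log2 fold change 3.84 ± 0.18 (SE), adjusted p = 2.15e-08). Gzmd, a granzyme of activated killer cells, was at 1.04 to 3.92 FPKM in DN1eP-NKT and listed at 0 in all 4 NKT-2 libraries.

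Among receptors shared with NK cells, those called higher included Klrc1, Klrk1, Klra5 and Klre1, while Klrb1c, described above, was not called. Klrc1, which encodes the inhibitory receptor NKG2A, had 121, 228, 257 and 197 FPKM in DN1eP-NKT, against 1.76, 7.03, 2.04 and 0 FPKM in NKT-2 (log2 fold change 6.08 ± 0.59 (SE), adjusted p = 0.000221). Klrk1, the activating receptor NKG2D, had 84.8, 123, 132 and 119 FPKM in DN1eP-NKT and 5.44, 5.43, 3.67 and 3.94 FPKM in NKT-2 (log2 fold change 4.36 ± 0.18 (SE), adjusted p = 1.29e-08). Klra5 and Klre1, killer lectin-like receptor genes, had log2 fold changes of 5.77 ± 0.31 and 4.68 ± 0.23 (SE; adjusted p = 1.08e-07 and 4.29e-08). All 4 genes separated the groups fully. Paralogous Klra genes are near-identical, so their levels depend on how reads were divided among copies. Il18r1, the IL-18 receptor chain, was the one member called lower, at 113, 84.5, 104 and 93 FPKM in DN1eP-NKT and 178, 167, 174 and 219 FPKM in NKT-2 (log2 fold change -0.90 ± 0.16 (SE), adjusted p = 0.00126).

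Markers of NK cells and innate lymphoid cells moved with these genes: 7 of 11 tested markers were higher and 2 lower, and the 14 markers summed to 241 to 293 FPKM in DN1eP-NKT, against 72.7 to 116 FPKM in NKT-2. Of these 14, 4 are also in the cytotoxic list. In all 4 NKT-2 libraries 6 of the 14 were under 1 FPKM, and any of these that passed the expression filter could not come out lower. Ncr1, the NK receptor NKp46, had 36.2, 1.17, 3.21 and 4.23 FPKM in DN1eP-NKT and was listed at 0 in every NKT-2 library; it was called (adjusted p = 0.0353), but adjusted p was 0.0667 to 0.0944 when DN1eP-NKT library 3 or 4 or any 1 NKT-2 library was left out. Tyrobp, the NK signalling adaptor DAP12, had 24.8, 7.09, 2.24 and 4.2 FPKM in DN1eP-NKT and 0.206, 0, 0 and 0 FPKM in NKT-2 (log2 fold change 2.88 ± 0.51 (SE), adjusted p = 0.0019). For these 2 genes and Eomes, DN1eP-NKT library 1 was the highest. Klri2 had 17.9 FPKM in that library and 43.5 to 49.7 FPKM in DN1eP-NKT libraries 2 to 4. Gpr183 had 25.6 FPKM, against 35.8 to 46.1 FPKM, and Klre1 39.6 FPKM, against 35.9 to 42.2 FPKM. Over the 7 markers called higher, library 1 stood at a median of 1.03 times the mean of libraries 2 to 4. Whether NK cells contributed RNA was not tested. In bulk samples, more cells of a type and more RNA per cell cannot be told apart.

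Levels in stage 3 libraries of matching median level are set beside these as description (3 libraries). Medians there were 227 FPKM for Gzma, 728 FPKM for Gzmb, 38.8 FPKM for Prf1, 212 FPKM for Klrc1 and 277 FPKM for Klrk1. Klrb1c had a median of 497 FPKM in those stage 3 libraries, which were sorted as NK1.1+. Both granzymes were thus higher in every DN1eP-NKT library than these stage 3 medians, Klrc1 lay on both sides of its stage 3 median, and Klrb1c was below its own in every library.

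**Figure D2:**
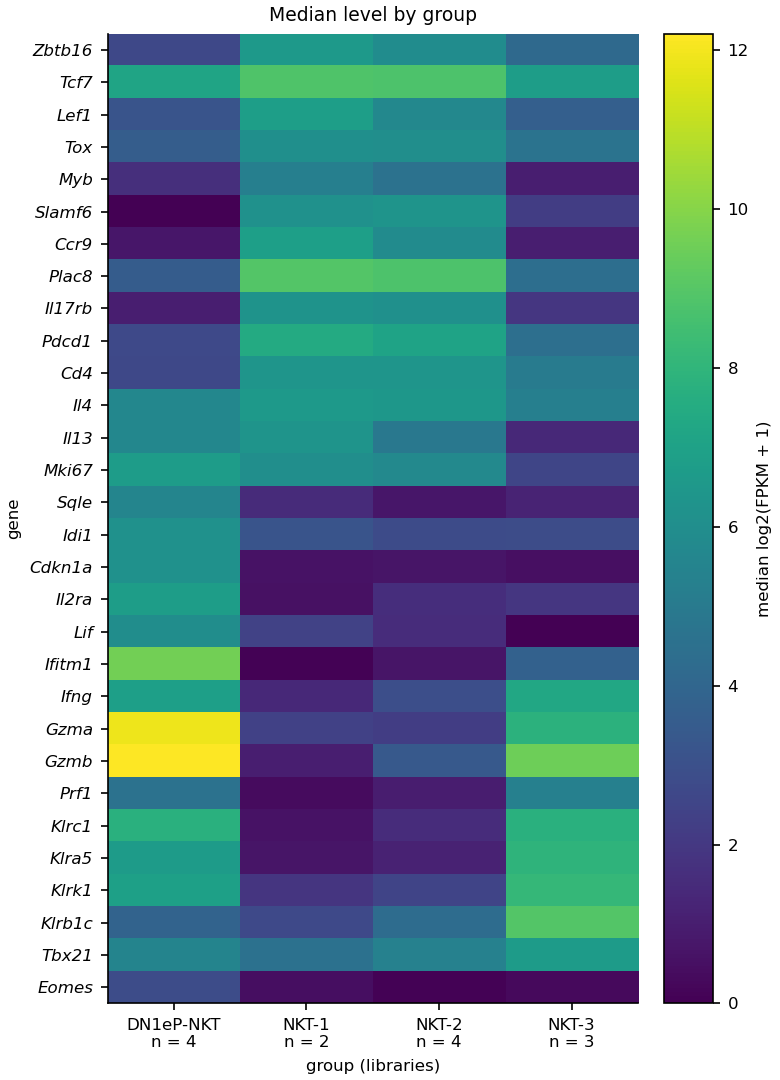
Median log2(FPKM + 1) of 30 genes (rows) in DN1eP-NKT (4 libraries), NKT-1 (2), NKT-2 (4) and NKT-3 (3), using only NKT libraries of matching median level; lighter colours are higher. DN1eP-NKT is dark with NKT-3 for Slamf6, Ccr9, Plac8 and Il17rb, is light with NKT-3 for Ifng, Klrc1 and Klra5, and alone is light for Ifitm1, Il2ra, Lif, Cdkn1a and Sqle.

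Most genes listed for IL-4-producing NKT2 cells were lower. Of 20 genes listed, 18 were tested: 14 were lower (77.8%), none was higher and the median log2 fold change was -2.36. At an unadjusted limma p under 0.05, 2 members were higher. Of the listed genes, 4 were under 1 FPKM in all 4 DN1eP-NKT libraries. Any of these that passed the expression filter could not come out higher. Folr4, a folate receptor family gene, had 2.17, 0.354, 0 and 1.47 FPKM in DN1eP-NKT, against 196, 402, 243 and 446 FPKM in NKT-2 (log2 fold change -7.40 ± 0.39 (SE), adjusted p = 6.01e-07). Plac8, a marker of NKT precursors and NKT2 cells, had 0.752, 16.4, 4.93 and 24.7 FPKM in DN1eP-NKT and 261, 441, 520.0 and 441 FPKM in NKT-2 (log2 fold change -5.61 ± 0.86 (SE), adjusted p = 0.00373). The cultured libraries spread widely for Plac8, and without DN1eP-NKT library 1 its log2 fold change was -4.87. Il17rb, the IL-25 receptor of NKT2 cells, had 6.81, 1.18, 0.871 and 0.819 FPKM in DN1eP-NKT and 75.6, 63.2, 64.3 and 74.4 FPKM in NKT-2 (log2 fold change -4.67 ± 0.42 (SE), adjusted p = 2.32e-05), and Ramp1, a peptide receptor subunit, had a log2 fold change of -6.20 ± 0.26 (SE). Icos, a costimulatory receptor, ranged from 109 to 133 FPKM in DN1eP-NKT and from 342 to 593 FPKM in NKT-2 (log2 fold change -1.92 ± 0.19 (SE), adjusted p = 1.34e-05). High levels of these genes were not particular to stage 2. Stage 1 libraries of matching median level (2 libraries) had medians of 258 FPKM for Folr4 and 485 FPKM for Plac8. Medians there were 75.5 FPKM for Il17rb, 98.7 FPKM for Ramp1 and 400 FPKM for Icos.

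The NKT2 cytokines themselves did not follow that direction together. Il4 had 51.9, 34.4, 48.6 and 50.1 FPKM in DN1eP-NKT, against 57.3, 88, 85.2 and 105 FPKM in NKT-2, without overlap (log2 fold change -0.83 ± 0.20 (SE), adjusted p = 0.0101). Il13, its neighbour in the type 2 locus, had 40.8, 57.1, 51.7 and 47.8 FPKM in DN1eP-NKT and 25.4, 29.5, 28.5 and 52.9 FPKM in NKT-2 and was not called (log2 fold change 0.57 ± 0.22 (SE), adjusted p = 0.0809); without NKT-2 library 4 it was called higher (adjusted p = 0.00568).

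Of 22 NKT17 genes, 17 were tested, 6 of them lower (35.3%) and 2 higher (11.8%), with a median log2 fold change of -0.32; without NKT-2 library 1, 6 were higher. Nrp1, neuropilin-1, had 0.505, 1.22, 1.27 and 1.73 FPKM in DN1eP-NKT, against 16.6, 22.3, 22.3 and 19.2 FPKM in NKT-2 (log2 fold change -3.30 ± 0.22 (SE), adjusted p = 3.49e-07). Blk, a kinase of IL-17-producing cells, had 0.0541, 1.45, 1.07 and 0.669 FPKM in DN1eP-NKT and 34.6, 10.4, 12.3 and 7.43 FPKM in NKT-2 (log2 fold change -3.08 ± 0.41 (SE), adjusted p = 0.000187), and its log2 fold change was -2.41 without library 1 of both groups. Il17a was listed at 0 in every DN1eP-NKT library and stood at 14.9, 1.75, 0.748 and 1.66 FPKM in NKT-2, where library 1 was the highest; it was not tested. The higher members were Itgae, the integrin CD103 (log2 fold change 0.85 ± 0.20 (SE), adjusted p = 0.00792), and Cxcr6, a chemokine receptor that NKT cells share across subsets (log2 fold change 0.92 ± 0.20 (SE), adjusted p = 0.00422).

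Interferon-gamma was higher, and other secreted factors differed in both directions. Of 17 tested effector cytokine genes, 8 were higher (47.1%) and 3 lower (17.6%), with a median log2 fold change of 1.1. Ifng had 114, 148, 123 and 93.2 FPKM in DN1eP-NKT, against 37.4, 5.05, 1.8 and 8.01 FPKM in NKT-2 (log2 fold change 3.77 ± 0.76 (SE), adjusted p = 0.0122); NKT-2 library 1 was the highest of its group, and without it the log2 fold change was 4.48. Lif, an IL-6 family cytokine, had 32.7, 64.7, 81.3 and 61.8 FPKM in DN1eP-NKT and 2.34, 1.17, 1.51 and 5.36 FPKM in NKT-2 (log2 fold change 4.15 ± 0.35 (SE), adjusted p = 5.91e-06). Csf2, which encodes GM-CSF, had 7.05, 5.75, 21.5 and 11 FPKM in DN1eP-NKT and 0.269, 1.02, 0.436 and 0.969 FPKM in NKT-2 (log2 fold change 2.75 ± 0.34 (SE), adjusted p = 8.23e-05). All 3 separated the groups.

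Il10, an anti-inflammatory cytokine, had 24.8, 5.99, 10.3 and 5.52 FPKM in DN1eP-NKT, against 0.269, 0, 0 and 0 FPKM in NKT-2 (log2 fold change 3.34 ± 0.38 (SE), adjusted p = 3.42e-05). Lta, lymphotoxin alpha, ranged from 38.6 to 46.3 FPKM in DN1eP-NKT and from 5.01 to 8.17 FPKM in NKT-2 (log2 fold change 2.54 ± 0.18 (SE), adjusted p = 5.97e-07). Spp1, osteopontin, had 7.06, 25.9, 39.2 and 48 FPKM in DN1eP-NKT and 0.122, 0, 0 and 0 FPKM in NKT-2 (log2 fold change 4.64 ± 0.47 (SE), adjusted p = 4.18e-05); its library 1 level was 0.187 times the mean of libraries 2 to 4, and without library 1 of both groups its log2 fold change was 5.23. The same ratio had a median of 0.177 over the stroma genes called higher and 0.832 over all genes at 10 FPKM or more, and the part of stromal RNA in the Spp1 level was not tested. On the lower side were Tnfsf11, which encodes RANKL (log2 fold change -0.98 ± 0.16 (SE), adjusted p = 0.000721), and Il21, listed at 0 in all DN1eP-NKT libraries and at 2.22, 2.94, 2.78 and 2.52 FPKM in NKT-2.

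Most IL-2 and STAT5 response genes were higher. Of 31 genes, 30 were tested: 22 were higher (73.3%), 2 lower (6.67%), with a median log2 fold change of 1.91; without DN1eP-NKT library 1, 20 were higher. Il2ra (mm9 chromosome 2, 11564419 to 11614821), the inducible chain that gives the IL-2 receptor high affinity, had 111, 92.7, 113 and 112 FPKM in DN1eP-NKT, against 1.43, 2.73, 0.911 and 2.57 FPKM in NKT-2 (log2 fold change 5.27 ± 0.22 (SE), adjusted p = 1.11e-08). Cish, a SOCS family inhibitor of cytokine signalling whose promoter is printed above, had 121, 118, 151 and 148 FPKM in DN1eP-NKT and 9.46, 7.76, 4.25 and 9.44 FPKM in NKT-2 (log2 fold change 4.0 ± 0.22 (SE), adjusted p = 8.59e-08). Socs2, of the same family, had 33.5, 37.6, 41.9 and 30.1 FPKM in DN1eP-NKT and 1.12, 0.451, 0.387 and 0.429 FPKM in NKT-2 (log2 fold change 4.54 ± 0.20 (SE), adjusted p = 1.61e-08). All 4 cultured libraries exceeded all 4 NKT-2 libraries for each.

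Pim2, a survival kinase, had 148, 115, 101 and 103 FPKM in DN1eP-NKT, against 16.1, 6.43, 7.48 and 11.4 FPKM in NKT-2 (log2 fold change 3.44 ± 0.25 (SE), adjusted p = 7.35e-07). Ccnd3, cyclin D3, had 133, 216, 232 and 266 FPKM in DN1eP-NKT and 85.1, 78.9, 66.2 and 103 FPKM in NKT-2 (log2 fold change 1.31 ± 0.22 (SE), adjusted p = 0.000868), and Myc ranged from 48.4 to 102 FPKM in DN1eP-NKT and from 30.0 to 38.4 FPKM in NKT-2 (log2 fold change 1.16 ± 0.22 (SE), adjusted p = 0.00192). The 2 members called lower were Stat5b, one of the STAT5 genes itself (log2 fold change -0.89 ± 0.23 (SE), adjusted p = 0.0122), and Irf4, a TCR-induced factor (log2 fold change -0.74 ± 0.22 (SE), adjusted p = 0.0303). A GAS motif was found in 4 of the 18 promoter windows available for the 22 higher members (22.2%), against 8.29% of the windows of all tested genes. Over all tested members of the list it was found in 5 of 25 windows (20%), a similar share.

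Cytokine receptors diverged. Of 23 tested, Il2ra, Il17rb and Il18r1 among them, 11 were higher (47.8%) and 7 lower (30.4%). Il4ra, the IL-4 receptor chain, had 59.9, 66.1, 69 and 67.5 FPKM in DN1eP-NKT, against 2.77, 3.11, 1.92 and 2.79 FPKM in NKT-2 (log2 fold change 4.20 ± 0.16 (SE), adjusted p = 5.57e-09). Il12rb2, the IL-12 receptor chain of interferon-gamma-producing cells, had 52.8, 64, 69.6 and 71.2 FPKM in DN1eP-NKT and 2.67, 8, 2.51 and 1.46 FPKM in NKT-2 (log2 fold change 3.98 ± 0.32 (SE), adjusted p = 3.42e-06), and Ifngr1, the interferon-gamma receptor, ranged from 159 to 237 FPKM in DN1eP-NKT and from 18.6 to 29.5 FPKM in NKT-2 (log2 fold change 3.16 ± 0.19 (SE), adjusted p = 1.34e-07). Il2rb, the chain shared by the IL-2 and IL-15 receptors, was high in both, at 469.7, 529.7, 512 and 511 FPKM in DN1eP-NKT and 195, 227, 175 and 188 FPKM in NKT-2 (log2 fold change 1.37 ± 0.15 (SE), adjusted p = 3.17e-05). Il6ra was lower (log2 fold change -2.75 ± 0.21 (SE), adjusted p = 1.46e-06). Il7r, the receptor of the other cytokine of the culture, had 167, 109.8, 109.8 and 105 FPKM in DN1eP-NKT and 169, 193, 190.0 and 151 FPKM in NKT-2 and just missed the threshold (log2 fold change -0.53 ± 0.18 (SE), adjusted p = 0.0534); without DN1eP-NKT library 1, the highest of its group, it was called lower (adjusted p = 0.00318).

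Costimulatory and inhibitory receptors split, with 8 of 20 higher and 6 lower. Pdcd1, which encodes PD-1, had 5.05, 5.52, 6.56 and 5.29 FPKM in DN1eP-NKT, against 106, 151, 131 and 141 FPKM in NKT-2 (log2 fold change -4.33 ± 0.16 (SE), adjusted p = 5.57e-09). Btla, another inhibitory receptor, and Cd28, the main costimulatory receptor, had log2 fold changes of -1.95 ± 0.24 and -1.39 ± 0.23 (SE). Tnfsf8, the CD30 ligand, had 61, 45.8, 49.6 and 37.2 FPKM in DN1eP-NKT and 0.146, 1.25, 0 and 1.19 FPKM in NKT-2 (log2 fold change 4.98 ± 0.28 (SE), adjusted p = 1.03e-07). Havcr2, the inhibitory receptor TIM-3, ranged from 9.07 to 15 FPKM in DN1eP-NKT and from 0 to 0.502 FPKM in NKT-2 (log2 fold change 3.35 ± 0.23 (SE), adjusted p = 5.89e-07). Cd200r1, an inhibitory receptor, and Tnfrsf9, which encodes 4-1BB, were higher by 3.68 ± 0.26 and 3.19 ± 0.25 (SE) on the log2 scale.

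**Figure D3:**
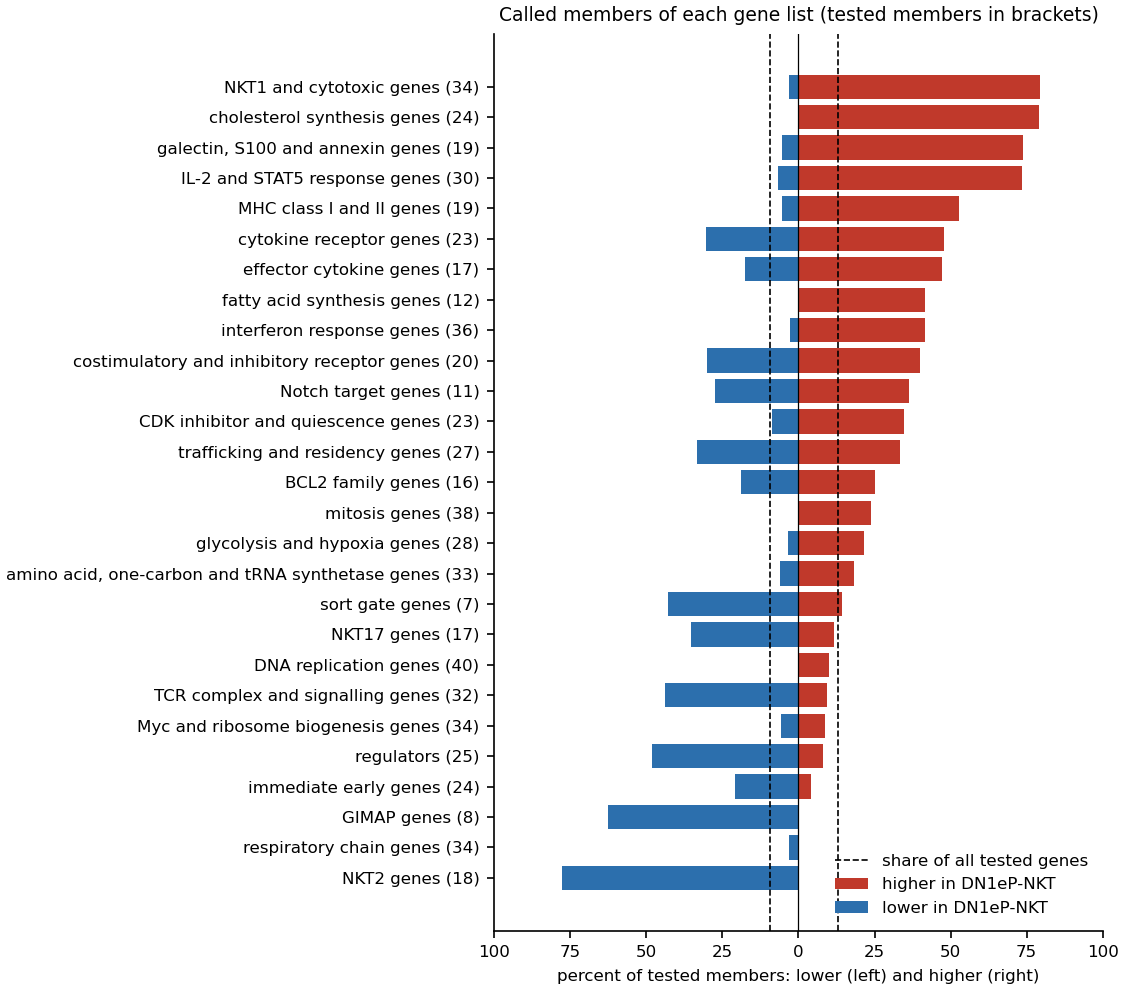
Share of the tested members called higher (red, right) and lower (blue, left) in DN1eP-NKT against NKT-2, in percent, for each gene list with 7 or more tested members, cell type marker lists left out, with the number tested in brackets; dashed lines are the shares of all tested genes, 13.1% higher and 9.39% lower. NKT1 and cytotoxic, cholesterol synthesis, galectin and IL-2 response genes reach the farthest right of the lists plotted and NKT2 and GIMAP genes the farthest left.

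Most cholesterol synthesis genes were higher. Of 26 genes, 24 were tested: 19 were higher (79.2%), none was lower and the median log2 fold change was 2.01. At an unadjusted limma p under 0.05, 0 members were lower. Among the listed genes, 3 were under 1 FPKM in all 4 NKT-2 libraries. Any of these that passed the expression filter could not come out lower. Without DN1eP-NKT library 1, 21 were higher. Sqle (mm9 chromosome 15, 59146647 to 59162748), squalene epoxidase, had 24.3, 45.7, 50.9 and 46.6 FPKM in DN1eP-NKT, against 0.67, 0.663, 0.711 and 0.631 FPKM in NKT-2 (log2 fold change 4.63 ± 0.23 (SE), adjusted p = 3.94e-08). Its groups did not overlap.

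Idi1, whose enzyme makes the isoprenoid unit and whose promoter is printed above, had 51.3, 81.9, 74.1 and 70.5 FPKM in DN1eP-NKT, against 6.84, 3.49, 12 and 4.82 FPKM in NKT-2 (log2 fold change 3.28 ± 0.28 (SE), adjusted p = 4.51e-06). Fdps, a farnesyl diphosphate synthase, had 87.9, 174, 184 and 187 FPKM in DN1eP-NKT and 26.3, 25.2, 24.1 and 25.5 FPKM in NKT-2 (log2 fold change 2.54 ± 0.22 (SE), adjusted p = 4.21e-06). Srebf2, which encodes the factor SREBP-2 that drives the pathway, and Insig1, its sterol-sensing retention partner, had log2 fold changes of 1.87 ± 0.16 and 2.06 ± 0.24 (SE). Library 1 was the lowest of the cultured libraries for Sqle, Idi1, Fdps and Srebf2, at 0.484 to 0.745 times the mean of libraries 2 to 4.

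Hmgcs1, an early enzyme of the pathway, is listed at 0 in library 1 of both groups, a value that can be a failed estimate. In libraries 2 to 4 it had 57.8, 40.5 and 37.0 FPKM in DN1eP-NKT, against 4.11, 9.75 and 4.43 FPKM in NKT-2. With all 8 libraries it was not called (log2 fold change 2.07 ± 1.53 (SE), adjusted p = 0.411), and without library 1 of both groups it was (log2 fold change 2.76, adjusted p = 2.39e-05). Of the 17 pathway members with a promoter window, 16 hold CCAAT (94.1%), against 43.5% of all tested genes' windows, and 1, that of Hmgcs1, holds the SRE letters (5.88%, against 1.32%). Of the 12 windows of members called higher, 11 hold CCAAT and 0 hold the SRE letters.

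Fatty acid synthesis genes differed in part, with 5 of 12 tested genes higher and none lower (1 lower at an unadjusted limma p under 0.05). In this list 2 genes were under 1 FPKM in all 4 NKT-2 libraries and, if tested, could not come out lower. Fads2, a fatty acid desaturase, had 4.24, 19.1, 10.5 and 17.5 FPKM in DN1eP-NKT, against 0, 0, 0.277 and 0 FPKM in NKT-2 (log2 fold change 3.53 ± 0.37 (SE), adjusted p = 1.7e-05). DN1eP-NKT library 1 stood at 0.27 times the mean of libraries 2 to 4 for Fads2, and the part of stromal RNA in its level was not tested. Fads1, the neighbour of Fads2, and Elovl1, an elongase, had log2 fold changes of 2.04 ± 0.22 and 0.84 ± 0.18 (SE).

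**Figure D4:**
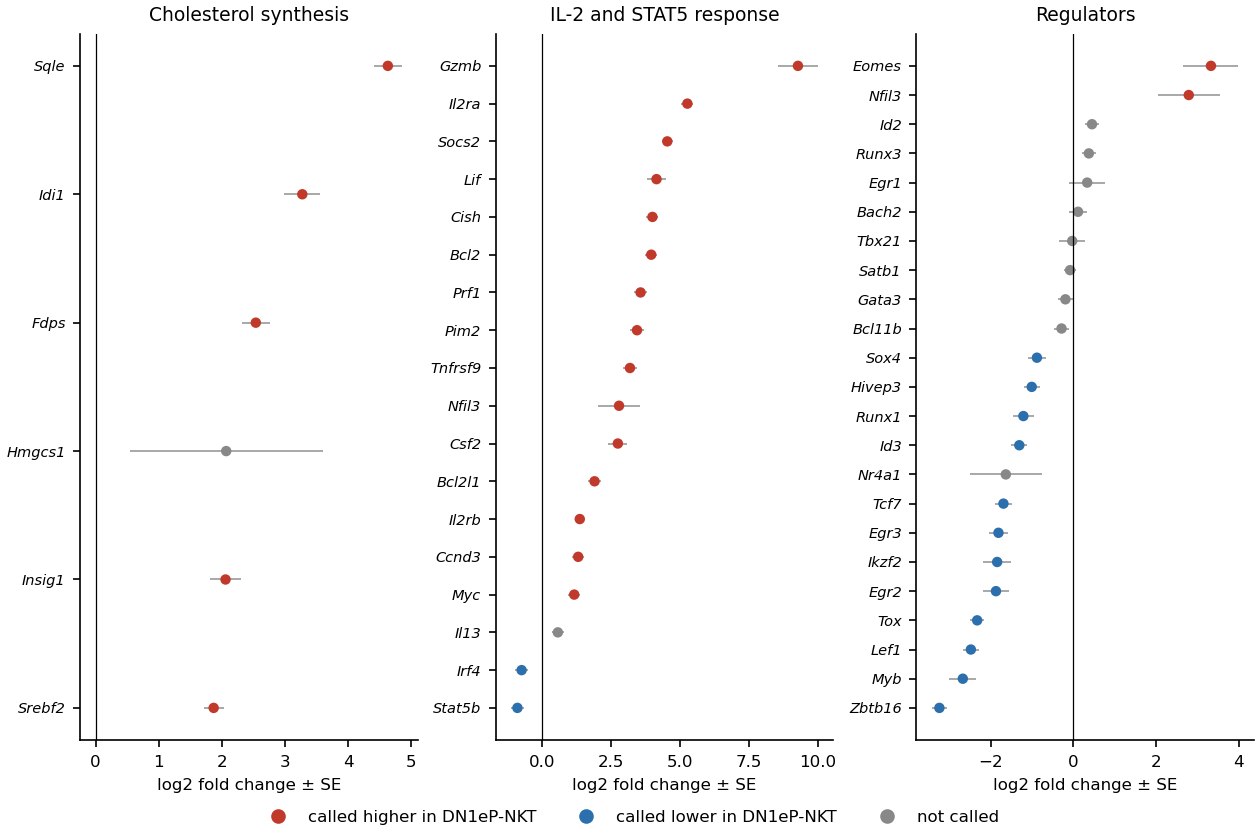
Log2 fold change (DN1eP-NKT minus NKT-2) of the tested members of the cholesterol synthesis, IL-2 and STAT5 response and regulator lists that are named in the text, with its standard error; red points were called higher, blue lower and grey not called. Hmgcs1 has the widest error among the cholesterol genes plotted, and Zbtb16 the lowest fold change among the regulators.

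Some cell division genes were higher, and most were not called. Of 38 mitosis genes, all tested, 9 were higher (23.7%), 29 not called and none lower (0 lower at an unadjusted limma p under 0.05), with a median log2 fold change of 0.29. Without DN1eP-NKT library 1, 16 were higher. Mki67, the proliferation antigen Ki-67, had 109.8, 99.6, 106 and 110.3 FPKM in DN1eP-NKT, against 52.2, 54.4, 46.4 and 68.7 FPKM in NKT-2 (log2 fold change 0.94 ± 0.16 (SE), adjusted p = 0.00072). Racgap1, which acts in cytokinesis and whose promoter is printed above, had 57.9, 81.7, 77 and 82.8 FPKM in DN1eP-NKT and 43.7, 42.4, 37.3 and 40.3 FPKM in NKT-2 (log2 fold change 0.84 ± 0.16 (SE), adjusted p = 0.00173), and Ccna2, cyclin A2, was higher by 0.80 ± 0.18 (SE) on the log2 scale. These 3 did not overlap, whereas Top2a did (log2 fold change 0.28 ± 0.20 (SE), adjusted p = 0.373). In stage 3 libraries of matching median level the Mki67 median was 4.79 FPKM. CHR was found in 22 of 33 promoter windows of the mitosis genes (66.7%), against 14.6% of all tested genes' windows.

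Of 40 DNA replication genes, 4 were higher (10%) and none lower (2 lower at an unadjusted limma p under 0.05), a share below that of all genes. Without DN1eP-NKT library 1, 10 were higher, and without any 1 of DN1eP-NKT libraries 2 to 4 or NKT-2 libraries 2 and 3, 1 or 2 were. Rrm2, a ribonucleotide reductase subunit, was one of the 4 (log2 fold change 0.82 ± 0.17 (SE), adjusted p = 0.00315). Of 23 CDK inhibitor and quiescence genes, 8 were higher (34.8%), 2 lower (8.7%) and 13 not called. That list also holds the D cyclins Ccnd1, Ccnd2 and Ccnd3, which are not CDK inhibitors. Ccnd3, described above, was among the members called higher. Cdkn1a, which encodes p21, had 77.6, 59.6, 71.5 and 69.4 FPKM in DN1eP-NKT, against 1.65, 0, 1.27 and 0 FPKM in NKT-2 (log2 fold change 5.49 ± 0.31 (SE), adjusted p = 9.72e-08). Cdkn2a, which encodes p16 and p19Arf, had 26.6, 47.2, 52 and 46.2 FPKM in DN1eP-NKT and 3.69, 4.66, 6.99 and 2.22 FPKM in NKT-2 (log2 fold change 3.06 ± 0.28 (SE), adjusted p = 5.37e-06). Both separated the groups. Tsc22d3, a glucocorticoid-induced gene of resting lymphocytes, had 8.36, 27.2, 16.5 and 13.3 FPKM in DN1eP-NKT and 4.36, 0.477, 0 and 0.454 FPKM in NKT-2 (log2 fold change 3.12 ± 0.51 (SE), adjusted p = 0.00144); its log2 fold change was 3.89 without library 1 of both groups. The 2 called lower were the antiproliferative genes Tob1 and Btg2. Tob1 had 11.4, 14.8, 19.8 and 21.6 FPKM in DN1eP-NKT and 37.3, 46.2, 36 and 49.8 FPKM in NKT-2 (log2 fold change -1.30 ± 0.20 (SE), adjusted p = 0.000496), and Btg2 had 28.8, 52.1, 56.8 and 44.9 FPKM in DN1eP-NKT and 95, 101, 72.9 and 87.6 FPKM in NKT-2 (log2 fold change -0.98 ± 0.21 (SE), adjusted p = 0.00409), both without overlap.

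Genes of the BCL2 family, which set the threshold for apoptosis, moved in both directions. Bcl2 had 98.1, 83, 93.2 and 97.5 FPKM in DN1eP-NKT, against 3.68, 8.75, 3.91 and 4.94 FPKM in NKT-2 (log2 fold change 3.96 ± 0.22 (SE), adjusted p = 8.59e-08), and Bcl2l1, which encodes BCL-XL, ranged from 34 to 53.8 FPKM in DN1eP-NKT and from 7.68 to 14.8 FPKM in NKT-2 (log2 fold change 1.90 ± 0.22 (SE), adjusted p = 4.74e-05). The A1 genes, also anti-apoptotic, were lower: Bcl2a1b had 23.9, 33.5, 33 and 35.8 FPKM in DN1eP-NKT and 186, 319, 254 and 237 FPKM in NKT-2 (log2 fold change -2.93 ± 0.19 (SE), adjusted p = 3.66e-07). Bcl2a1a and Bcl2a1d, near-identical copies whose reads may be shared, had log2 fold changes of -3.08 and -3.39. Pro-apoptotic members were higher too: Bcl2l11, which encodes BIM, at 51.4, 24.9, 27.4 and 28 FPKM in DN1eP-NKT and 5.29, 5.48, 6.74 and 5.71 FPKM in NKT-2 (log2 fold change 2.26 ± 0.22 (SE), adjusted p = 8.57e-06), and Bax (log2 fold change 1.31 ± 0.21 (SE), adjusted p = 0.000641). The counts were 4 higher and 3 lower of 16 tested.

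The 3 Ifitm genes were, with Gzma and Gzmb, the 5 tested genes with the largest positive fold changes. Ifitm1 (mm9 chromosome 7, 148153328 to 148155726), a membrane protein that restricts viral entry, had 687, 673, 891 and 849.5 FPKM in DN1eP-NKT, against 0.473, 0, 0.766 and 1.7 FPKM in NKT-2 (log2 fold change 8.89 ± 0.25 (SE), adjusted p = 1.01e-09). Ifitm2 had 1115, 2737, 3152 and 3559 FPKM in DN1eP-NKT and 3.7, 0, 2.14 and 0.949 FPKM in NKT-2 (log2 fold change 10.03 ± 0.54 (SE), adjusted p = 5.06e-06). Ifitm3 had 382, 959, 1153 and 1218 FPKM in DN1eP-NKT and 3.19, 0, 6.11 and 0.904 FPKM in NKT-2 (log2 fold change 8.27 ± 0.68 (SE), adjusted p = 0.000132). DN1eP-NKT library 1 stood at 0.854 times the mean of libraries 2 to 4 for Ifitm1, 0.354 times for Ifitm2 and 0.344 times for Ifitm3; without library 1 of both groups the log2 fold changes of Ifitm2 and Ifitm3 were 10.7 and 8.86. The part of stromal RNA in these levels was not tested.

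Of 36 interferon response genes, these 3 included, 15 were higher (41.7%), 1 lower and 20 not called. Gbp6, a guanylate-binding protein, had 160.2, 111, 119 and 119 FPKM in DN1eP-NKT, against 21.7, 28.5, 29.7 and 28.5 FPKM in NKT-2 (log2 fold change 2.19 ± 0.17 (SE), adjusted p = 1.3e-06). Of 19 tested MHC genes, 10 were higher (52.6%) and 1 lower. Among class I genes, H2-Q6 ranged from 168 to 282 FPKM in DN1eP-NKT and from 30.9 to 58.8 FPKM in NKT-2 (log2 fold change 2.53 ± 0.24 (SE), adjusted p = 6.37e-06), and H2-K1, a classical antigen-presenting chain, from 1184 to 1554 FPKM in DN1eP-NKT and from 498 to 674 FPKM in NKT-2 (log2 fold change 1.33 ± 0.18 (SE), adjusted p = 0.000135). H2-Q6 and its neighbours are close paralogs. Nlrc5, the activator of class I genes, had 60.4, 39.7, 34.9 and 29.3 FPKM in DN1eP-NKT and 12.2, 12.3, 9.02 and 12 FPKM in NKT-2 (log2 fold change 1.72 ± 0.21 (SE), adjusted p = 7.05e-05), while H2-DMa, a class II loading chain, was the one member called lower (log2 fold change -2.08 ± 0.30 (SE), adjusted p = 0.000284).

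Trafficking and residency genes divided evenly, with 9 of 27 higher and 9 lower; without library 1 of both groups 14 were higher and 9 lower. Ccr9, the thymic and gut homing receptor, had 0.894, 0.178, 0.393 and 0.922 FPKM in DN1eP-NKT, against 27.6, 75.1, 52.6 and 63.9 FPKM in NKT-2 (log2 fold change -5.07 ± 0.29 (SE), adjusted p = 1.06e-07). Ccr7, which guides cells to lymph nodes and the thymic medulla, had 4.65, 2.9, 3.65 and 2.58 FPKM in DN1eP-NKT and 34, 54.8, 44.3 and 49 FPKM in NKT-2 (log2 fold change -3.39 ± 0.20 (SE), adjusted p = 1.27e-07). Ccr4 and Cxcr4, the receptor for the stromal chemokine CXCL12, were lower as well, with log2 fold changes of -2.14 and -2.12. Gpr183, an oxysterol receptor, and Selplg, the selectin ligand PSGL-1, were higher, with log2 fold changes of 2.19 ± 0.35 and 0.94 ± 0.21 (SE).

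Notch target genes did not move as one. Of 11 tested, 4 were higher and 3 lower. Il2ra and Myc, also listed as IL-2 response genes, were among the higher, and the regulator Tcf7 among the lower. Dtx1, a target and modulator of Notch, had 26.1, 89.3, 91.9 and 97.9 FPKM in DN1eP-NKT, against 9.58, 8.41, 6.7 and 9.15 FPKM in NKT-2 (log2 fold change 2.87 ± 0.37 (SE), adjusted p = 0.000312), and Nrarp, a feedback inhibitor, had 11.3, 17.3, 20.8 and 21.8 FPKM in DN1eP-NKT and 4.06, 7.12, 4.27 and 5.08 FPKM in NKT-2 (log2 fold change 1.60 ± 0.23 (SE), adjusted p = 0.000249). Hes1 and Hey1, classical targets, were lower instead, with Hes1 at 1.13, 0.294, 0.649 and 0.61 FPKM in DN1eP-NKT and 10.9, 2.03, 3.48 and 5.15 FPKM in NKT-2 (log2 fold change -1.77 ± 0.36 (SE), adjusted p = 0.00339) and Hey1 at a log2 fold change of -2.43; NKT-2 library 1 was the highest of its group for both. Of 8 GIMAP genes, GTPases of lymphocyte survival, 5 were lower and none higher (0 higher at an unadjusted limma p under 0.05). Gimap4 had 85.5, 149, 132 and 117 FPKM in DN1eP-NKT and 294, 528, 534 and 412 FPKM in NKT-2 (log2 fold change -1.85 ± 0.23 (SE), adjusted p = 7.69e-05), and Gimap6 was lower by a similar amount (-1.93 ± 0.23, SE).

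Stroma genes were present in the cultured libraries and near absent from NKT-2. Of 40 fibroblast and stroma markers, 24 were tested, 20 of them higher and 1 lower, with a median log2 fold change of 3.33. Of the 40, 35 were under 1 FPKM in all 4 NKT-2 libraries. Such a marker passed the expression filter only through DN1eP-NKT and could not come out lower. The count and the median were thus largely set by the filter. Leaving out Thy1 and Igfbp4, which NKT-2 libraries also held, the other 38 markers summed to 136.5, 567, 823 and 769 FPKM in DN1eP-NKT libraries 1 to 4, against 5.97, 12.5, 12.1 and 13.1 FPKM in NKT-2. Of the 40 markers, 1 was at 0 in all 4 DN1eP-NKT libraries and 14 in all 4 NKT-2 libraries, while 23 reached 1 FPKM in all 4 DN1eP-NKT libraries and 4 in all 4 NKT-2 libraries. By the sums, DN1eP-NKT library 1 was well below its group's other libraries. Cxcl12, a chemokine of stroma, had 53.5, 125, 179 and 191 FPKM in DN1eP-NKT and 0.133, 0, 0 and 0 FPKM in NKT-2 (log2 fold change 6.91 ± 0.33 (SE), adjusted p = 6.37e-08). Col1a1, a fibrillar collagen chain, had 2.43, 28.6, 49 and 40.8 FPKM in DN1eP-NKT and 0.0659, 0.188, 0.322 and 0.179 FPKM in NKT-2 (log2 fold change 4.18 ± 0.81 (SE), adjusted p = 0.00831). Fn1, fibronectin, had 6.86, 45.7, 63.6 and 60.9 FPKM in DN1eP-NKT and 0.0183, 0.104, 0.0446 and 0 FPKM in NKT-2 (log2 fold change 5.06 ± 0.62 (SE), adjusted p = 0.000463). Without DN1eP-NKT library 1 the log2 fold changes of Col1a1 and Fn1 were 5.06 and 5.78. Dll1, the ligand that the OP9/Dll-1 line was made to carry, stood at 0.647, 6.94, 8.78 and 8.49 FPKM in DN1eP-NKT and 0.0459, 0, 0 and 0 FPKM in NKT-2 and was not tested.

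Across the 20 stroma genes called higher, library 1 stood at a median of 0.177 times the mean of libraries 2 to 4 (0.0616 to 0.539), while over 6290 tested genes at 10 FPKM or more that ratio had a median of 0.832. The corresponding medians were 0.941 for the higher cytotoxic genes, 0.818 for the IL-2 response genes and 0.679 for the cholesterol genes. Of all genes called higher, at any level, 149 (10.7%) had a ratio under 0.5. Of those 6290 genes 5.31% did, but that share leaves out genes under 10 FPKM, so the 2 shares are not directly comparable. Markers of other cell types summed as follows: 10 B cell markers summed to 1.78 to 3.76 FPKM in DN1eP-NKT and 1.17 to 6.72 FPKM in NKT-2, and 17 myeloid markers to 7.5 to 15.0 FPKM in DN1eP-NKT and 1.13 to 3.49 FPKM in NKT-2. Mast cell and basophil markers summed to 4.40 to 30.4 FPKM in DN1eP-NKT and 0.811 to 3.78 FPKM in NKT-2, erythroid markers to 1.51 to 18.4 FPKM in DN1eP-NKT and 0.793 to 3.95 FPKM in NKT-2. Thymic epithelium markers summed to 1.08 to 4.71 FPKM in DN1eP-NKT and 1.48 to 2.67 FPKM in NKT-2. Immature thymocyte markers summed to 46.4 to 65.3 FPKM in DN1eP-NKT and 139 to 154 FPKM in NKT-2, with 4 of 6 tested lower. Cd4, described above, is in that list and alone had 73.4 to 87.3 FPKM in NKT-2, against 2.29 to 6.16 FPKM in DN1eP-NKT. The 4 gamma-delta T cell markers summed to 32.6 to 41.3 FPKM in DN1eP-NKT and 35.6 to 76.6 FPKM in NKT-2. Of these 4, 1 was higher and 3 lower. The B cell marker Pax5 and the myeloid marker Lyz2 were listed at 0 in all 4 DN1eP-NKT libraries. DN1eP-NKT library 1 was the highest for the mast cell and erythroid sums. Kit, a mast cell and progenitor marker, had 8.12, 4.06, 4.4 and 3.22 FPKM in DN1eP-NKT and 0.149, 0, 0.146 and 0.162 FPKM in NKT-2 (log2 fold change 2.36 ± 0.26 (SE), adjusted p = 3.24e-05).

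**Figure D5:**
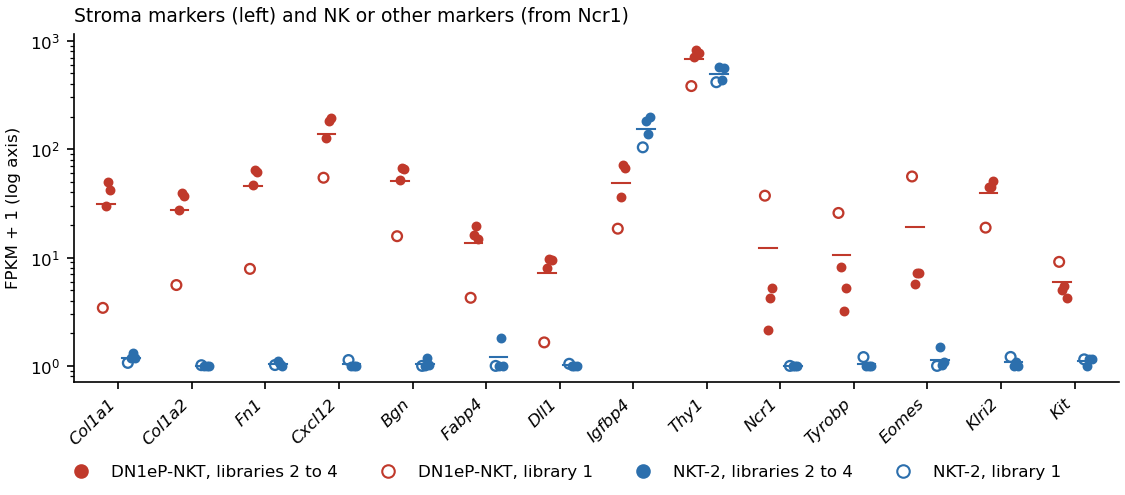
Levels of stroma markers (Col1a1 to Thy1) and of NK cell or mast cell markers (Ncr1 to Kit) in each library as FPKM + 1 on a log axis, DN1eP-NKT in red on the left and NKT-2 in blue on the right of each gene, open circles for library 1 and bars for the mean of the 4 libraries. DN1eP-NKT library 1 is the lowest of its group for Col1a1, Fn1, Cxcl12, Bgn, Dll1 and the NK marker Klri2. It is the highest for Ncr1, Tyrobp, Eomes and Kit.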

How the data were processed

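RNA-seq of sorted mouse thymocytes and cultured cells was deposited by the authors as FPKM per gene with interval bounds, made with TopHat2 2.0.6 and Cufflinks 2.1.1 on mm9, per the submitters' processing notes. SMARTer Ultra Low Input or TruSeq v2 kits were used per the labels' protocols, which do not say which library had which. The FPKM of rows sharing a symbol were summed. Genes reaching 1 FPKM in 4 or more of 8 libraries entered limma 3.58.1 (R 4.3.3; trend and robust empirical Bayes) on log2(FPKM + 1), with groups DN1eP-NKT and NKT-2, no covariate and Benjamini-Hochberg adjustment. The test was tested on simulated data with 200 genes changed among 10607. It called 80% of 2-fold and 98% of 4-fold changes, and 13 unchanged genes. The changed genes were drawn only from those above about 10 FPKM in NKT-2. Noise was normal and independent between libraries, with no effect of library 1. The shares therefore do not cover lower genes or the spread that library 1 adds. Read counts are not used here, so depth is known only through the interval widths.

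Members and lists were chosen with earlier results of these data known. Genes were named by a rule: all sort gate, coreceptor and tested regulator genes; per other list up to 3 members with the largest rise and 3 with the largest fall, and over all genes 10 each way, among called genes at a mean of 10 FPKM in a group without overlap; and defining markers. Part of these is printed, a few are not reported here, and some other genes were chosen after their values were seen. Alternatives left out each library, changed the pseudocount (0.1), filter (5 FPKM or none), scaling, test, library terms and libraries fitted. Promoters are RefSeq's (GRCm38.p6) and carry no mm9 coordinates; the mm9 positions are the deposited ones.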

Additional observations from a re-analysis of the deposited data

Results flagged for a closer look

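Each named gene gave 1 set of 4 values in each group where its mean was at least 1 FPKM, and other groups were left out. Of these 292 sets, 28 (9.59%) had 1 library far from the other 3, past Dixon's 95% critical gap on log2(FPKM + 1). By chance, about 1 in 20 would do so. DN1eP-NKT library 1 was that library 18 times. The levels, in FPKM with the range of the other 3 libraries, were as follows. DN1eP-NKT library 1 was above the others for Klrb1c at 56.8 (others 11.3 to 14), Eomes at 54.9 (others 4.65 to 6.27), Hivep3 at 6.38 (others 4.31 to 4.59), Il17rb at 6.81 (others 0.819 to 1.18), Il7r at 167 (others 105 to 109.8) and Bcl2l11 at 51.4 (others 24.9 to 28). It was below the others for the cholesterol genes Sqle at 24.3 (others 45.7 to 50.9), Hmgcs1 at 0 (others 37 to 57.8), Fdps at 87.9 (others 174 to 187) and Srebf2 at 58.1 (others 75.9 to 79.9). It was also below them for Cd8b1 at 0.0676 (others 3.19 to 3.92), Cxcr4 at 7.14 (others 19.1 to 22.3), Dtx1 at 26.1 (others 89.3 to 97.9) and Anxa1 at 15 (others 46 to 46.9). The class I genes H2-Q7 at 113 (others 212 to 219) and H2-K1 at 1184 (others 1493 to 1554) and the stroma genes Fn1 at 6.86 (others 45.7 to 63.6) and Dll1 at 0.647 (others 6.94 to 8.78) were lower there too. DN1eP-NKT library 2 stood apart for Il2ra at 92.7 (others 111 to 113), Il4 at 34.4 (others 48.6 to 51.9) and Odc1 at 145 (others 109 to 111), and DN1eP-NKT library 4 for Egr2 at 0.826 (others 3.72 to 4.18). NKT-2 library 1 stood apart for Nfil3 at 12.6 (others 0.449 to 0.944), Gpr183 at 17.8 (others 4.62 to 5.55), Egr1 at 59.2 (others 30 to 33) and Gbp6 at 21.7 (others 28.5 to 29.7), NKT-2 library 2 for Klrb1c at 48.6 (others 15.8 to 19) and NKT-2 library 3 for Nlrc5 at 9.02 (others 12 to 12.3).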

How the results depend on the processing

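No alternative called a gene in the direction opposite to the main test. The number of called genes was 1859 to 2559 when 1 library was left out, with 1088 to 1574 higher and 771 to 1004 lower. Of the called genes, 261 to 334 belonged to at least 1 list, each counted once. A test against a 2-fold change called 453 genes, 292 higher and 161 lower, and 139 of them belonged to at least 1 list. That test asks for more than a difference from 0. All 26 libraries fitted without a term for the library set gave 1493 called genes, 439 of them lower; the median log2 fold change of all genes was then 0.36, and the cause was not tested. The libraries share replicate numbers, but deviations of same-numbered libraries correlated at 0.487, -0.057, 0.039 and 0.167, so the numbers were not taken to pair samples; only library 1 of DN1eP-NKT correlated best with its own number. The replicate block called 2819 genes, and a term for library 1 called 3011. Some log2 fold changes changed sign, and the cause was not tested. With libraries left out, Tbx21 ranged from -0.21 to 0.28 (above 0 without DN1eP-NKT library 1, NKT-2 library 2, at 0.0039, NKT-2 library 4, at 0.14, or library 1 of both groups, at 0.10), Cd8b1 from -0.43 to 0.30 (without DN1eP-NKT library 1; 0.21 without library 1 of both groups), Cxcr3 from -0.14 to 0.024 (without DN1eP-NKT library 1), Klrb1c from -0.89 to 0.061 (without NKT-2 library 2) and Egr1 from -0.0436 (without DN1eP-NKT library 2) to 0.90 (without library 1 of both groups). With array weights Tbx21 was 0.17 and Cd8b1 0.15, and with quantile normalization Bach2 was -0.0288. Over 26 libraries Tbx21 was 0.11 with and 1.36 without the set term, Cxcr3 0.15 with it, and Satb1 0.042 with and 1.04 without it. Over 26 libraries without the set term, Cd44 was 0.11, Id2 -0.51, Hivep3 0.30, Bcl11b 0.30, Sox4 0.0065, Stat5b 0.34 and Igfbp4 0.064. Depth limits genes near 1 FPKM, where an entry of 0 can be a failed estimate.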

Other observations

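Galectin, S100 and annexin genes were higher in 14 of 19 tested (73.7%) and lower in 1. S100a4, a calcium-binding protein of motile and memory cells, had 1398, 1672, 1712 and 1621 FPKM in DN1eP-NKT, against 338, 192, 259 and 161 FPKM in NKT-2 (log2 fold change 2.80 ± 0.22 (SE), adjusted p = 1.77e-06). Lgals3, galectin-3, had 683, 588, 528 and 548 FPKM in DN1eP-NKT and 154, 97.6, 117 and 112 FPKM in NKT-2 (log2 fold change 2.29 ± 0.18 (SE), adjusted p = 1.43e-06), and Lgals1, galectin-1, ranged from 1275 to 2456 FPKM in DN1eP-NKT and from 496 to 554 FPKM in NKT-2 (log2 fold change 1.95 ± 0.21 (SE), adjusted p = 2.76e-05). The groups did not overlap for these 3. Library 1 stood at 0.548 times the mean of libraries 2 to 4 for Lgals1, and stroma cells express galectin-1 and S100 genes too; their part was not tested. S100a11 was the member called lower (log2 fold change -0.69 ± 0.19 (SE), adjusted p = 0.0174), with an adjusted p of 0.0636 without NKT-2 library 3.

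Among energy and growth genes, the share of called members differed by list, beside 13.1% higher and 9.39% lower over all tested genes. Of 28 glycolysis and hypoxia genes, 6 were higher (21.4%) and 1 lower (3.57%), and 12 were higher without DN1eP-NKT library 1. Ndrg1, a stress- and hypoxia-induced gene, had 21.1, 18.2, 16.6 and 20.4 FPKM in DN1eP-NKT, against 3.31, 3.77, 4.44 and 2.99 FPKM in NKT-2 (log2 fold change 2.12 ± 0.17 (SE), adjusted p = 2.12e-06), and Bnip3, a mitophagy receptor, had 14.8, 25.5, 32.3 and 32.3 FPKM in DN1eP-NKT and 4.68, 5.98, 5.13 and 6.21 FPKM in NKT-2 (log2 fold change 2.01 ± 0.23 (SE), adjusted p = 4.18e-05). Of 33 amino acid, one-carbon and tRNA synthetase genes, 6 were higher (18.2%) and 2 lower (6.06%). Among 34 Myc and ribosome biogenesis genes, 3 were higher (8.82%) and 2 lower (5.88%). Of 34 respiratory chain genes, 1 was lower (2.94%) and 0 were higher. Of 24 immediate early genes, 5 were lower (20.8%) and 1 higher (4.17%). Without NKT-2 library 3, 9 were lower. Rgs2, a regulator of G protein signalling, had 11.3, 22.2, 23.1 and 19.5 FPKM in DN1eP-NKT and 136, 100.5, 51.6 and 109 FPKM in NKT-2 (log2 fold change -2.29 ± 0.29 (SE), adjusted p = 0.000131), without overlap.

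Some genes outside the lists were among those with the lowest fold changes. Chdh, choline dehydrogenase, had 0.867, 0.14, 0.308 and 0.977 FPKM in DN1eP-NKT, against 41.2, 42.3, 40.3 and 42.9 FPKM in NKT-2 (log2 fold change -4.80 ± 0.21 (SE), adjusted p = 1.41e-08). Pcsk1, a prohormone convertase, had 0.0531, 0.793, 0.35 and 0.658 FPKM in DN1eP-NKT and 38, 27.4, 47.6 and 25.7 FPKM in NKT-2 (log2 fold change -4.59 ± 0.24 (SE), adjusted p = 8.16e-08). Ckb, a creatine kinase, had 4.68, 2.01, 1.27 and 1.79 FPKM in DN1eP-NKT and 88.8, 59.6, 65.9 and 88.9 FPKM in NKT-2 (log2 fold change -4.55 ± 0.26 (SE), adjusted p = 1.08e-07). All 3 separated the groups.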
